A study of Mus musculus with 6 samples.

Results

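The transcripts described here are those of the adult mouse globins: the alpha genes Hba-a1 and Hba-a2 and the beta genes Hbb-bs and Hbb-bt. They were chosen by name and found by gene number in a table of 27179 genes. Of the 4 genes, 3 had a row, and Hbb-bt had none. A row with the gene number of Hbb-b1, an adult beta gene of another mouse haplotype, carried counts in all 6 libraries. It was used in place of a Hbb-bt row, which gave 4 adult globin rows, and which beta copy its reads came from cannot be told apart here.

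RNA came from bone marrow mesenchymal stromal cells of C57BL/6 mice at postnatal day 2, heterozygous for Cxcl12-DsRed, a red fluorescent reporter in the gene of the chemokine CXCL12. The DsRed-positive cells were sorted without cells that carried CD45 (blood), Ter119 (erythroid) or CD31 (endothelium). Poly(A) RNA was kept as Input or pulled down on beads, either with an antibody that binds the RNA mark N6-methyladenosine (m6A) or with IgG as the background control. All 3 groups thus share genotype, age, strain and sort, and they are anti-m6A-bound RNA (2 libraries), IgG-bound RNA (2 libraries) and Input (2 libraries). Whether animals were pooled, and whether the libraries of a group are separate animals or separate pull-downs, is not stated in the labels. The p-values below therefore reflect how far these libraries spread, and that spread may be technical.

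Haemoglobin, the oxygen carrier of red cells, is a tetramer of a pair of alpha chains and a pair of beta chains, each holding a heme. The globin genes lie in an alpha cluster and a beta cluster, in which embryonic genes precede adult ones, and the factors GATA1 and KLF1 drive the adult genes in erythroblasts. Maturing mouse red cells lose their nucleus but keep globin mRNA for a time, and Ter119 is an antigen on the surface of erythroid cells. In the bone marrow, globin mRNA is known as a product of the erythroid lineage.

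Both alpha genes lie on chromosome 11 and both beta genes on chromosome 7, and each has 3 exons. On GRCm38, Hba-a1 spans chr11:32283672-32284486 and Hba-a2 chr11:32296492-32297310, both on the plus strand. Hbb-bs spans chr7:103826523-103827928 and Hbb-bt chr7:103812524-103813923, both on the minus strand. The copies are nearly the same in sequence, which bears on every value of a single copy below. In the GENCODE transcripts, the coding sequences of Hba-a1 and Hba-a2 differed at 1 of 429 bases, and the 74 bases that could be aligned of their 3′ untranslated regions were identical. Hbb-bs and Hbb-bt also differed at 1 base of the 444 in their coding sequence, while their 3′ untranslated regions were 72.1% identical. An alpha against a beta gene, Hba-a1 against Hbb-bs, gave 61.5% identity of coding sequence.

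The single coding difference between the alpha genes was C381T, with Hba-a1 first and bases counted from 1 at the first coding base. It is shown here because it is the one coding base by which a read can tell the copies apart, and because it falls in a GGAC, the core of the sequence context in which m6A is most often found. The capital marks the differing base in the sequences of GRCm38.
Hba-a1: tgcctctctggaCaaattccttgcc
Hba-a2: tgcctctctggaTaaattccttgcc
GGAC was found, on the transcribed strand, 2 times in the transcript of Hba-a1, 0 times in that of Hba-a2, 2 times in that of Hbb-bs and 3 times in that of Hbb-bt. The coding matches are shown next with GGAC in capitals, at base 378 of Hba-a1 and at bases 113 and 237 of Hbb-bs, counted as before. The other match of Hba-a1 lay in the longer 5′ end that GENCODE gives this copy. The match of Hbb-bt outside its coding sequence also lay in a longer 5′ end, of 127 bases against 53 in Hbb-bs. The numbers of matches per copy thus depend in part on how far these ends reach.
Hba-a1, base 378: atgcctctctGGACaaattccttg
Hbb-bs, base 113: gtctacccttGGACccagcggtac
Hbb-bs, base 237: tgaatcacttGGACagcctcaagg
Of 472 protein-coding transcripts of 550 to 710 bases, a range that takes in all 4 globins, 88.6% held at least 1 GGAC. The longer form GGACT was in none of the 4 globin transcripts and in 44.7% of those 472. These matches are letters in a sequence and do not show that a site is methylated.

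The stretches before the transcription starts are shown for the motifs of GATA1 and KLF1, the factors named above. What part these motifs had in the comparisons below was not tested. They are the 250 bases before the start of 1 alpha and 1 beta gene (RefSeq, GRCm38.p6), at chr11:32283422-32283671 on the plus strand and chr7:103827929-103828178 on the minus strand. Capitals mark GATAA (the GATA1 motif), CACCC (the KLF1 motif), CCAAT and TATAA, searched on both strands and with no overlap between motifs in these 2 stretches.
Hba-a1: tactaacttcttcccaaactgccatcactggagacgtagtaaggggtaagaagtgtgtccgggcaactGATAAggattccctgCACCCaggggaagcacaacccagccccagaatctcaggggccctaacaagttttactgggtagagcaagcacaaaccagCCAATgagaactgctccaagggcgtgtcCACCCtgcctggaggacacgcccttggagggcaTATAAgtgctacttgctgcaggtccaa
Hbb-bs: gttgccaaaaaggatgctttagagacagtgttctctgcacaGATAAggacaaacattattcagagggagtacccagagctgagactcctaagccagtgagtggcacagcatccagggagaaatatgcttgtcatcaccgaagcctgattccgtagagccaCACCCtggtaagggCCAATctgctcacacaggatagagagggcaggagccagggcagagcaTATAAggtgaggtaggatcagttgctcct
All 4 adult genes held all 4 motifs in the 300 bases that the table gives for each gene, of which 50 follow the start. Among 27025 promoters of that length, GATAA was in 25.8%, CACCC in 56.7%, CCAAT in 37.9%, TATAA in 25.5%, and all 4 together in 1.54%. The promoters of Hba-a1 and Hba-a2 shared an identical run of 297 bases. Of the embryonic genes, Hba-x and Hbb-y held 3 of the 4 motifs, while the minor genes Hbb-bh2, Hbq1a and Hbq1b held 1, 1 and 2. Motifs of the embryonic gene Hbb-bh1 are not given here.

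Deposited counts summed to between 5133237 and 6102070 in the anti-m6A libraries, between 1278735 and 2487148 in the IgG libraries and between 7125578 and 9493391 in the Input libraries. The IgG libraries were narrow, with at most 3266 genes detected, against at least 12391 in the anti-m6A libraries and at least 10024 in the Input libraries. Levels are given in CPM, counts scaled to library size after adjustment by the trimmed mean of M-values (TMM). A level is thus a share of its library and not an amount of RNA. In a bulk library, fewer cells of a type and less RNA per cell cannot be told apart.

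Globin RNA was present in every library, at between 4363 and 10670 counts, and its share followed the order IgG, anti-m6A, Input. The 4 rows together made up 0.0966% and 0.109% of the counts of the anti-m6A libraries, 0.429% and 0.484% of those of the IgG libraries, and 0.0612% and 0.0804% of those of the Input libraries. The exact 95% binomial intervals, which cover counting error only because reads carry no molecular identifiers, did not overlap between groups; the widest ran from 0.472% to 0.496%, in IgG library 2. As summed levels these shares were 1317 ± 134 CPM in anti-m6A, 4069 ± 79.7 CPM in IgG and 628 ± 159 CPM in Input (mean ± SD, n = 2 each). By rank of counts, Hbb-bs was gene 621 of 12714 and 570 of 12391 in the anti-m6A libraries, 98 of 3266 and 83 of 2723 in the IgG libraries, and 1917 of 10024 and 644 of 11186 in the Input libraries.

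Among the alpha copies, Hba-a1 stood at 295 and 353 CPM in anti-m6A, at 846 and 789 CPM in IgG and at 179 and 162 CPM in Input. Hba-a2 stood at 292 and 341 CPM in anti-m6A, at 1262 and 1239 CPM in IgG and at 161 and 195 CPM in Input. Every IgG library was above every anti-m6A library and every anti-m6A library above every Input library for both copies. In counts, the sum of both alpha rows was 2828 and 2752 in anti-m6A, 5453 and 3129 in IgG, and 2870 and 3679 in Input. That sum came to 640 ± 75.8 CPM in anti-m6A, 2068 ± 56.8 CPM in IgG and 348 ± 12.2 CPM in Input (mean ± SD, n = 2 each).

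For the beta chain, Hbb-bs stood at 452 and 513 CPM in anti-m6A, at 1493 and 1492 CPM in IgG and at 115 and 290 CPM in Input. The Hbb-b1 row stood at 184 and 205 CPM in anti-m6A, at 524 and 493 CPM in IgG and at 61.8 and 93.9 CPM in Input. The groups again did not overlap, but the Input libraries were far apart, with Hbb-bs 2.52-fold higher in library 2 than in library 1, while no alpha row differed by more than 1.21-fold there. Summed beta counts were 3064 and 2847 in anti-m6A, 5217 and 3062 in IgG, and 1493 and 3955 in Input, and the summed level was 677 ± 58.1 CPM in anti-m6A, 2001 ± 22.9 CPM in IgG and 280 ± 146 CPM in Input (mean ± SD, n = 2 each). Input library 1 was thus the one library in which beta was low relative to alpha.

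**Figure D1:**
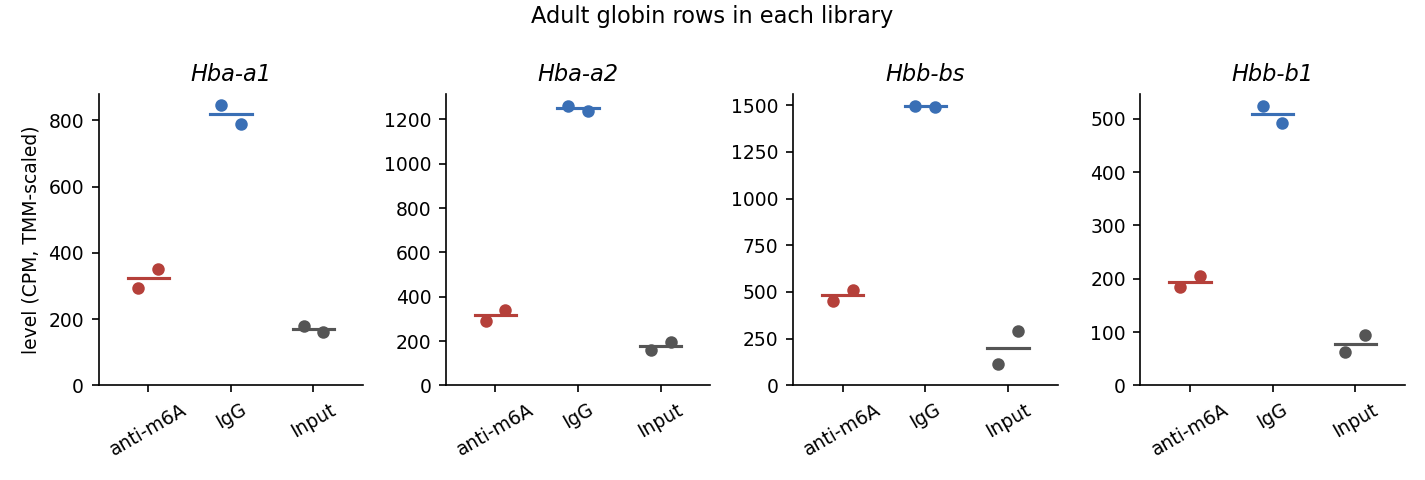
Level of each adult globin row (CPM, TMM-scaled, linear axes from 0, each panel with its own scale) in the 2 libraries of anti-m6A, IgG and Input; points are libraries and bars group means. The IgG points lie highest in every panel and the Input points lowest, and the 2 Input points of Hbb-bs, at 115 and 290 CPM, are the farthest apart relative to their mean.

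Compared per length, as levels of different genes must be, Hbb-bs reached 768 ± 68.7 CPM per kb in anti-m6A, 2377 ± 0.865 in IgG and 322 ± 197 in Input (mean ± SD, n = 2 each). Hba-a2 reached 571 ± 63.1 CPM per kb in anti-m6A, 2257 ± 29.8 in IgG and 321 ± 43.2 in Input. Hba-a1 had the lowest mean of the 3 in each group, at 463 ± 58.4 CPM per kb in anti-m6A, 1170 ± 57.6 in IgG and 244 ± 16.8 in Input. In Input library 1, however, Hbb-bs stood at 183 CPM per kb and Hba-a1 at 256. The transcript lengths used were 699 bases for Hba-a1, 554 for Hba-a2 and 628 for Hbb-bs, and the first of these includes the longer 5′ end. That end lowers the values of Hba-a1 per kb, so its rank depends on the length given to it. The levels per kb of all 3 rows also depend on how reads that match several copies were counted, which is not stated. Before division by length, Hba-a1 stood at 324 CPM and Hba-a2 at 316 CPM in anti-m6A. In Input, Hbb-bs and Hba-a2 did not differ beyond the spread of the libraries.

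Every adult globin row was lower in anti-m6A than in IgG, the comparison that sets the m6A antibody against the background antibody. The alpha sum had a log2 change of −1.70 ± 0.16 (SE, 2 libraries each, edgeR quasi-likelihood adjusted p = 0.00079) and the beta sum one of −1.57 ± 0.38 (edgeR adjusted p = 0.0121). Among single rows, Hba-a2 changed most, with −1.98 ± 0.19 (edgeR adjusted p = 0.000852), and Hba-a1 least, with −1.34 ± 0.19 (edgeR adjusted p = 0.00207). The log2 change was −1.63 ± 0.45 for Hbb-bs (edgeR adjusted p = 0.0188) and −1.39 ± 0.27 for Hbb-b1 (edgeR adjusted p = 0.00532). These errors come from the fit over all 6 libraries, so the spread of the Input libraries enters them. With only the 4 libraries compared, the change of Hbb-bs was −1.63 ± 0.13 (edgeR adjusted p = 0.000115). So 4 of 4 rows were called lower, against 8.31% of the 11281 genes tested, and 4 of 4 had both anti-m6A libraries below both IgG libraries, against 10.8% of those genes. Without IgG library 1 or 2 the adjusted p of Hbb-bs was 0.0655 or 0.061, and without anti-m6A library 1 that of Hbb-b1 was 0.0539; both family sums remained called when any 1 library was left out.

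Because most genes had no counts on IgG beads, the 1757 genes with at least 10 counts in every library give a closer frame. Over them the median log2 change of anti-m6A against IgG was −0.28, and 31.0% of them lay below Hba-a1, 23.3% below Hba-a2, 27.4% below Hbb-bs and 30.1% below Hbb-b1. The globins were thus below the median of abundant genes in this comparison and not at its edge. Relative to that median the alpha sum was lower by a log2 difference of −1.41 and the beta sum by one of −1.28. Scaled and tested over these genes alone, 586 of the 1757 were called lower and 593 higher, and both sums were still called lower.

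Set against Input, the share after the m6A pull-down was higher for every globin row, and here the calls depended on the scaling. The alpha sum had a log2 change of 0.88 ± 0.16 (SE, n = 2 libraries each, edgeR adjusted p = 0.00956), a 1.84-fold higher level in anti-m6A than in Input. For the beta sum the log2 change was 1.27 ± 0.38 (edgeR adjusted p = 0.0412), a 2.42-fold higher level. Hba-a1 rose by 0.93 ± 0.19 (edgeR adjusted p = 0.0133), Hba-a2 by 0.83 ± 0.19 (edgeR adjusted p = 0.0184) and Hbb-b1 by 1.32 ± 0.27 (edgeR adjusted p = 0.0136) on the log2 scale. Hbb-bs, at 1.25 ± 0.44, did not pass (edgeR adjusted p = 0.0671). Thus 3 of 4 rows were called higher, against 28.0% of genes tested, and 4 of 4 had both anti-m6A libraries above both Input libraries, against 44.3%. Without Input library 1 the log2 change of the beta sum was 0.84, and without Input library 2 it was 1.93, while the alpha sum lay within 0.71 to 1.01 whichever library was left out. Without anti-m6A library 1 or 2 neither sum passed (edgeR adjusted p = 0.0723 and 0.174 for alpha, 0.0882 and 0.122 for beta), nor did the beta sum without IgG library 1 or 2 (edgeR adjusted p = 0.0752 and 0.076).

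These differences from Input sat on a shift of the whole table that depends on scaling. The median log2 change of all genes tested was 0.18, and it moved by −0.40 with relative log expression size factors, those that DESeq2 uses, and by −0.51 with library totals. With them the log2 change of the alpha sum was 0.44 and 0.33, and that of the beta sum 0.85 and 0.75, none of them past the threshold (edgeR adjusted p between 0.0974 and 0.121). Relative to the median of all genes, the alpha sum was higher by 0.70 as reported, 0.66 with size factors and 0.65 with library totals, and the beta sum by 1.09, 1.07 and 1.07. Over the 1757 genes with at least 10 counts in every library the median was 0.41, and the alpha sum was 0.47 and the beta sum 0.86 above it. Of those genes, 63.9% lay below Hba-a1, 61.2% below Hba-a2, 73.6% below Hbb-bs and 75.6% below Hbb-b1. Of the genes called, 57.8% were higher in anti-m6A as reported, against 47.6% with size factors and 45.5% with library totals.

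IgG against Input gave the largest globin changes of the 3 comparisons, and every row was higher in IgG. The log2 change of the alpha sum was 2.58 ± 0.17 (SE, n = 2 libraries each, edgeR adjusted p = 0.00051), a 5.96-fold higher level, and that of the beta sum was 2.84 ± 0.40 (edgeR adjusted p = 0.00189), a 7.17-fold higher level. The beta change was 2.41 without Input library 1 and 3.50 without Input library 2, where that of Hbb-bs was 2.38 and 3.69. By row, the log2 change was 2.26 ± 0.19 for Hba-a1 (edgeR adjusted p = 0.000609), 2.81 ± 0.20 for Hba-a2 (edgeR adjusted p = 0.000516), 2.88 ± 0.47 for Hbb-bs (edgeR adjusted p = 0.00314) and 2.71 ± 0.28 for Hbb-b1 (edgeR adjusted p = 0.00086). All 4 rows were called higher, against 9.89% of genes tested, and had both IgG libraries above both Input libraries, against 12.3%. Among the 1757 abundant genes, whose median log2 change was 0.78, 80.5% lay below Hba-a1, 86.8% below Hba-a2, 87.1% below Hbb-bs and 86.1% below Hbb-b1. Relative to that median the alpha sum was 1.79 higher and the beta sum 2.06 higher on the log2 scale. Scaled and tested over these genes alone, the alpha and beta sums had log2 changes of 1.68 and 1.95, around a median of −0.12, and were still called. In that fit, 480 of the 1757 genes were called higher and 571 lower. The 3 comparisons share libraries in pairs, so their values for a row are not independent of each other.

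**Figure D2:**
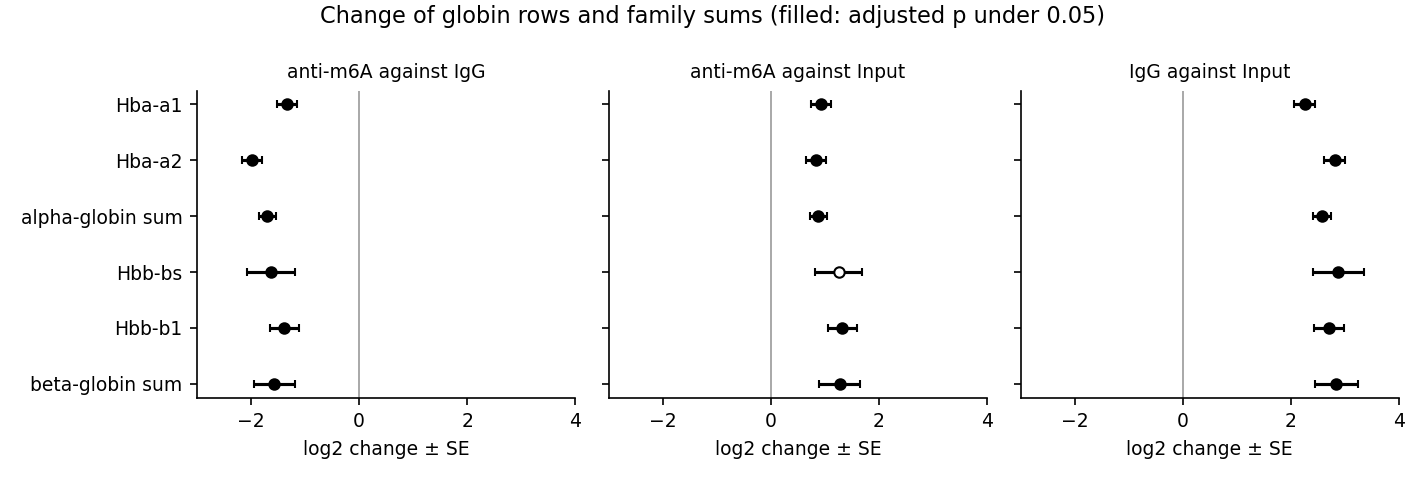
Log2 change ± SE (horizontal axis) of each globin row and of the alpha and beta sums in the 3 comparisons, from the edgeR fits over 6 libraries; filled points have an adjusted p under 0.05. All points lie left of 0 for anti-m6A against IgG and right of 0 in the other panels, and Hbb-bs in anti-m6A against Input is the one open point.

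**Figure D3:**
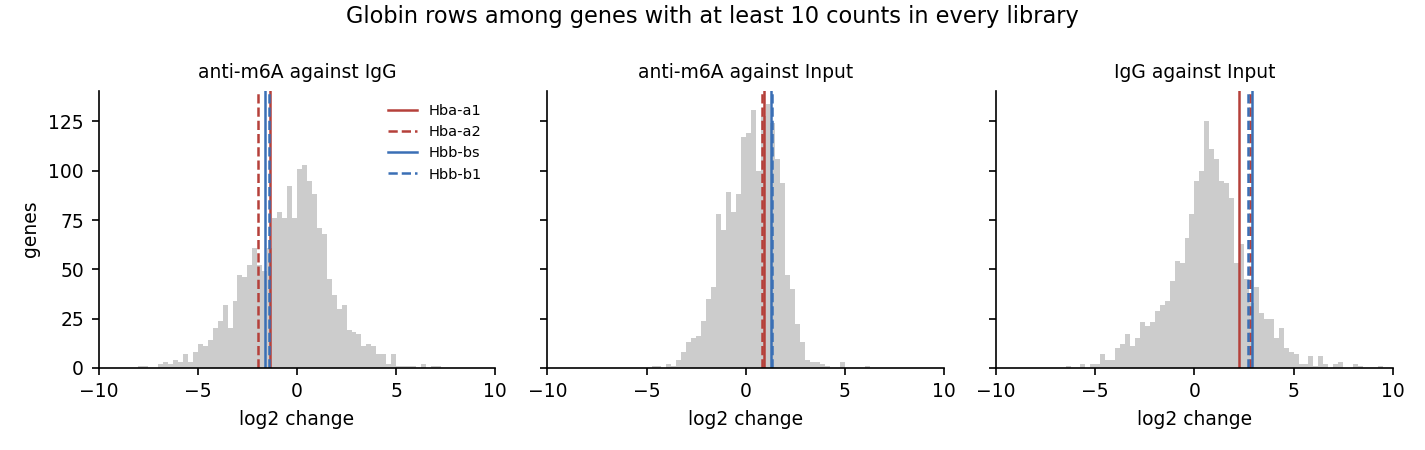
Number of genes (vertical axis) by log2 change (horizontal axis) for the 1757 genes that no library held at under 10 counts, with lines at the 4 globin rows. The lines lie left of the centre for anti-m6A against IgG and toward the right flank for IgG against Input, inside the spread of other genes in each panel.

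Hba-a2 took a larger part of the alpha counts in IgG than in the other libraries. It made up 49.7% and 49.2% of alpha counts in anti-m6A, 59.9% and 61.1% in IgG, and 47.4% and 54.6% in Input. Both IgG libraries lay above the other 4, and their exact 95% intervals, from 58.5% to 62.8%, did not touch those of the other libraries, which reached at most 56.2%. With 2 libraries against 2, an exact permutation test cannot go below p = 0.333, so these shares are given without a test. Since the alpha copies share nearly all of their sequence, how the reads were divided between them depends on the authors' counting.

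In the beta family, the Hbb-b1 row held 28.9% and 28.6% of beta counts in anti-m6A, 26.0% and 24.8% in IgG, and 35.0% and 24.5% in Input. Alpha rows made up 48.0% and 49.2% of all adult globin counts in anti-m6A, 51.1% and 50.5% in IgG, and 65.8% and 48.2% in Input. The alpha share of counts was therefore within 48.0% to 51.1% in 5 of the 6 libraries, and Input library 1 was the exception, at 65.8% (exact 95% interval 64.4% to 67.2%). These shares are not divided by length and depend on how reads that match several copies were counted. They thus compare libraries and do not measure the balance of chains.

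**Figure D4:**
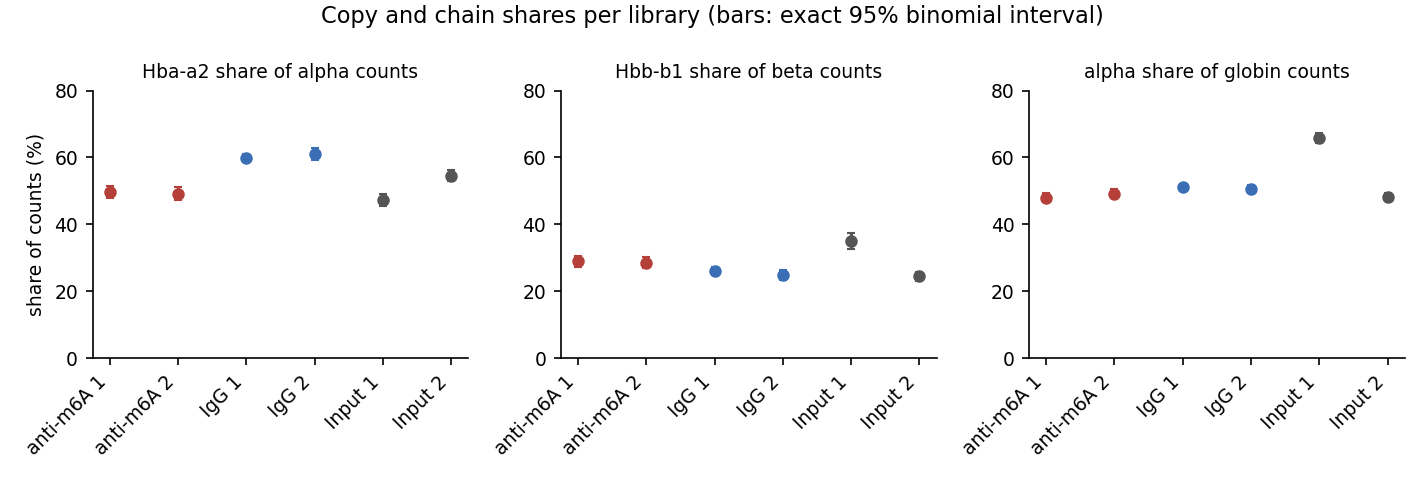
Share of counts (%, axes from 0) held by Hba-a2 among alpha counts, by Hbb-b1 among beta counts and by alpha among all adult globin counts, one point per library with its exact 95% binomial interval. The 2 IgG points of Hba-a2 are at 59.9% and 61.1%, and Input library 1 stands apart in the other panels, at 35.0% and 65.8%.

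Embryonic globin genes were not detected. The embryonic alpha-like gene Hba-x, the embryonic beta-like genes Hbb-y and Hbb-bh1, the minor genes Hbb-bh2, Hbq1a and Hbq1b, and the muscle oxygen store myoglobin (Mb) had 0 counts in all 6 libraries. By counting error alone, a count of 0 allows up to 0.622 and 0.756 CPM in the anti-m6A libraries, 1.16 and 1.94 CPM in the IgG libraries, and 0.355 and 0.291 CPM in the Input libraries (3 counts per library). Libraries of 1 group differed by more than that for some genes, as Klf1 had 0 and 452 counts in Input. The same limit holds for the folds given below as at least a value. Hbb-bh0 and Hbb-b2 had no row and were not analysed here. Cytoglobin (Cygb), a globin of fibroblasts and other stromal cells, had 187 and 141 counts in anti-m6A, against 0 and 0 in IgG, and 352 and 274 in Input. Its pattern differed in order from that of the adult globins, since IgG was lowest: at least 22.0-fold lower in IgG than in Input (edgeR adjusted p = 0.000995) and at least 23.9-fold higher in anti-m6A than in IgG (edgeR adjusted p = 0.00109). Both calls are common here, as 61.5% of genes tested were called lower in IgG than in Input and 73.1% higher in anti-m6A than in IgG. Neuroglobin (Ngb), the globin of neurons, had 2 and 1 counts in anti-m6A, against 0 and 0 in IgG, and 545 and 407 in Input, and both pull-downs were called lower than Input (edgeR adjusted p = 0.00716 for anti-m6A and 0.00111 for IgG).

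Heme synthesis genes, which make the prosthetic group of globin, were called in shares near those of all genes tested. Of 9 tested, 7 were higher and 0 lower in anti-m6A than in IgG, 2 higher and 2 lower in anti-m6A against Input, and 0 higher and 6 lower in IgG against Input; the backgrounds are 73.1% and 8.31%, 28.0% and 20.5%, and 9.89% and 61.5% of genes tested. With a gene at 0 in a group set to its bound, their median log2 change was 4.09 for anti-m6A against IgG, 0.10 for anti-m6A against Input and −4.84 for IgG against Input, beside 2.95, 0.20 and −3.41 over all genes. These medians follow the same order of comparisons in the lists below, which share these backgrounds. Urod, a decarboxylase of the pathway, had 649 and 600 counts in anti-m6A, against 0 and 0 in IgG, and 283 and 185 in Input. It was at least 92.1-fold higher in anti-m6A than in IgG (edgeR adjusted p = 0.000849). Alas2, the erythroid form of the first enzyme, had only 7 and 10 counts in anti-m6A, against 20 and 3 in IgG, and 0 and 48 in Input, and none of its changes passed (edgeR adjusted p between 0.501 and 0.917).

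Of its relatives, Alas1, the form of that enzyme found in all tissues, had 58 and 31 counts in anti-m6A, with 0 in the 4 other libraries, and was at least 30.7-fold higher in anti-m6A than in Input (edgeR adjusted p = 0.00738). Cpox and Fech, later enzymes of the pathway, had lower levels in anti-m6A than in Input, with log2 changes of −4.84 ± 0.50 and −1.50 ± 0.32 (edgeR adjusted p = 0.00716 and 0.022). Ahsp, the chaperone of free alpha chains, was not analysed here. Of 17 named genes of these and the following lists that were called in anti-m6A against Input, 15 did not pass without anti-m6A library 1 and 14 without anti-m6A library 2. With the replicate number as a block in the model, 5 did not pass, which were Fech, Flvcr1, Nfe2, Slc25a37 and Xpo7 (edgeR adjusted p = 0.0742, 0.0954, 0.0552, 0.0796 and 0.0771).

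Iron and heme transport genes divided. Of 11 tested, 7 were higher and 1 lower in anti-m6A than in IgG, 3 higher and 4 lower in anti-m6A against Input, and 3 higher and 6 lower in IgG against Input, with medians at the bound of 1.71, −0.16 and −2.98. Blvrb, a reductase of heme breakdown products, was the one called lower in anti-m6A than in IgG, as the globins were, with log2 changes of −0.93 ± 0.28 for anti-m6A against IgG (edgeR adjusted p = 0.0261) and 1.40 ± 0.28 for IgG against Input (edgeR adjusted p = 0.00691). Without anti-m6A library 1 or 2, or without IgG library 1, the first of these did not pass (edgeR adjusted p between 0.0783 and 0.158). Fth1, the ferritin heavy chain that stores iron in most cells, had a log2 change of 1.71 ± 0.15 for anti-m6A against Input (edgeR adjusted p = 0.00716) and 1.28 ± 0.14 for IgG against Input (edgeR adjusted p = 0.00103). Slc25a39, a mitochondrial carrier, had 1406 and 1128 counts in anti-m6A, against 0 and 0 in IgG, and 1483 and 1070 in Input. Slc25a38, the mitochondrial glycine carrier used in heme synthesis, had 191 and 170 counts in anti-m6A, with 0 in the other 4 libraries. Slc25a37 (mitoferrin), with 4 and 3 counts in anti-m6A, 2 and 1 in IgG, and 25 and 261 in Input, and Flvcr1 (a heme exporter), with 0 in both pull-downs and 33 and 17 in Input, were called lower in anti-m6A than in Input (edgeR adjusted p = 0.034 and 0.0235). Slc11a2 (an iron importer) was at least 41.7-fold lower in IgG than in Input (edgeR adjusted p = 0.000662).

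Red cell membrane genes gave 5 higher and 1 lower of 9 tested in anti-m6A against IgG, 0 higher and 3 lower in anti-m6A against Input, and 1 higher and 7 lower in IgG against Input, with medians at the bound of 1.56, −1.36 and −3.70. Slc4a1, the anion exchanger band 3, was highest in Input, with 0 and 1 counts in anti-m6A, against 0 and 0 in IgG, and 104 and 120 in Input, and both pull-downs were called lower than Input (edgeR adjusted p = 0.0103 for anti-m6A and 0.00522 for IgG). Gypc (glycophorin C) and Epb41 (a membrane skeleton protein), which other cells also make, had 0 counts in IgG, and were at least 22.1-fold and 19.6-fold higher in anti-m6A than in IgG (edgeR adjusted p = 0.00074 and 0.00156). Rhd, a blood group protein, had 13 and 9 counts in anti-m6A, against 0 and 0 in IgG, and 187 and 762 in Input. Its log2 change in anti-m6A against Input was −4.26 ± 0.82 (edgeR adjusted p = 0.0176), and −4.85 and −3.14 without Input library 1 and 2. Tspan33, a tetraspanin, was at least 42.1-fold lower in IgG than in Input (edgeR adjusted p = 0.00102).

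Erythroid transcription factors gave 5 higher and 0 lower of 6 tested in anti-m6A against IgG, 4 higher and 0 lower in anti-m6A against Input, and 0 higher and 1 lower in IgG against Input, with medians at the bound of 2.92, 3.52 and −3.82. The last of these rests on 3 genes, since the other 3 had 0 counts in both IgG and Input. Klf1 had 60 and 48 counts in anti-m6A, against 0 and 0 in IgG, and 0 and 452 in Input, so that its Input counts came from library 2 alone, and none of its changes passed (edgeR adjusted p between 0.124 and 0.793). Gata1 had 3 and 2 counts in anti-m6A, with 0 in the other 4 libraries, too few to be tested. Epor, the erythropoietin receptor, had 63 and 38 counts in anti-m6A and 0 elsewhere, as Nfe2, an activator of globin genes, had 24 and 22, and both were called higher in anti-m6A than in Input (edgeR adjusted p = 0.00716 for each). Ldb1 and Lmo2, bridging partners of GATA1, had 167 and 108, and 73 and 63 counts in anti-m6A, against 0 in both IgG libraries.

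Late red cell enzymes and remodelling genes gave 8 higher and 1 lower of 13 tested in anti-m6A against IgG, 4 higher and 2 lower in anti-m6A against Input, and 2 higher and 7 lower in IgG against Input, with medians at the bound of 2.83, −0.66 and −3.42. Prdx2, a peroxidase abundant in red cells and made by many others, was the one gene called lower in anti-m6A than in IgG, at −1.13 ± 0.15 on the log2 scale (edgeR adjusted p = 0.00192), and it was higher in IgG than in Input by 1.02 ± 0.15 (edgeR adjusted p = 0.00246). Gpx1, a glutathione peroxidase, was also higher in IgG than in Input, by 1.99 ± 0.20 (edgeR adjusted p = 0.000785). Scaled and tested over the 1757 abundant genes, the calls of Prdx2, Blvrb and Fth1 in IgG against Input were lost (edgeR adjusted p = 0.543, 0.143 and 0.132). Car1 (carbonic anhydrase 1) and Bpgm (which makes the haemoglobin ligand 2,3-bisphosphoglycerate) had 32 and 41, and 53 and 50 counts in anti-m6A, and 0 in the other 4 libraries. Trim10 had 0 counts in both pull-downs, against 605 and 602 in Input, its level in anti-m6A being at least 94.3-fold lower than in Input (edgeR adjusted p = 0.00716). Fam210b, Bnip3l, Car2 and Xpo7 had between 0 and 1 counts in the IgG libraries.

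Of 12 markers of stroma, the labelled cell type, all were detected in the anti-m6A and Input libraries and 8 in each IgG library, where Kitl, Pdgfra, Col3a1 and Prrx1 had 0 counts. Their summed levels stood at 5856 and 5873 CPM in anti-m6A, at 4465 and 4319 CPM in IgG, and at 10957 and 11589 CPM in Input. In IgG, most of these counts were of Cxcl12 (7051 and 4153) and Col1a1 (3814 and 2186). Of the 12 markers, 0 were called higher and 11 lower in IgG than in Input, against 9.89% and 61.5% of genes tested. Their median log2 change in that comparison was −5.26. Of 6 general blood genes, 4 had 0 counts in all libraries, among them Ptprc, which encodes CD45, and the list summed to 0 in both pull-downs and to at most 113 counts in Input. In anti-m6A the summed counts ran to 498 and 446 for endothelium, 380 and 344 for platelets and megakaryocytes, and 776 and 693 for B-lineage cells. Single genes carried most of these sums in anti-m6A: Egfl7 had 439 and 390 of the endothelial counts, Pf4 262 and 247 of the platelet counts and Ebf1 640 and 547 of the B-lineage counts, while 6 of the 8 B-lineage genes had 0 counts in all libraries. On IgG beads these lists had at most 5 counts. The Input libraries held 581 and 938 counts of endothelium, 436 and 834 of platelets and megakaryocytes, and 2182 and 1628 of the B-lineage list. All of these B-lineage counts in Input were of Ebf1.

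Erythroid markers were few beside the globins. Of 9 defining genes with a row, Epb42 and Rhag were among those with 0 counts in all 6 libraries. The 9 together had 360 and 266 counts in anti-m6A, against 50 and 17 in IgG, and 963 and 1812 in Input. Outside IgG, most of these counts were of Car2, which other cells also express and which had 290 and 204 counts in anti-m6A, with 0 in IgG and 859 and 1192 in Input. Without Car2 the summed levels stood at 14.5 and 15.6 CPM in anti-m6A, at 19.3 and 11.0 CPM in IgG and at 12.3 and 60.1 CPM in Input, and the groups overlapped. Per 100 globin counts, a ratio that the globins themselves lower where they are high, the sums without Car2 were 1.19 and 1.11 in anti-m6A, 0.469 and 0.275 in IgG, and 2.38 and 8.12 in Input.

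Summed markers of 2 other cell types were, as the globins were, highest in IgG. Summed hepatocyte markers were at 1769 and 1807 CPM in anti-m6A, at 24212 and 21839 CPM in IgG, and at 1473 and 3255 CPM in Input, with Alb and Apoa1 detected in all 6 libraries and Afp at 0 in 5. Trf, which other cells also express, made up 11423 of the 12450 hepatocyte counts of Input library 1 and 12832 of the 33552 of Input library 2, and without it the sums stood at 1186 and 1249.9 CPM in anti-m6A, at 23812 and 21599.6 CPM in IgG and at 122 and 2010.02 CPM in Input. Neutrophil and myeloid markers were at 182 and 201 CPM in anti-m6A, at 3067 and 2107 CPM in IgG, and at 167 and 253 CPM in Input, with Elane, Ctsg and Csf3r at 0 in all 6. The IgG counts were of S100a8, S100a9, Mpo and Camp alone. Other members of that list were placed otherwise: Prtn3 had 221 and 188 counts in anti-m6A, with 0 in IgG and 382 and 272 in Input, Lcn2 had 85 and 109 in anti-m6A with 0 elsewhere, and Ltf had 329 and 196 in Input with 0 elsewhere. Input library 1, low in beta globin, was also low in hepatocyte markers such as Apoa1, which had 195 counts there and 3938 in Input library 2. Alpha globin was not low there, at 340 CPM in Input library 1 and 357 CPM in Input library 2, and Trf differed little in counts. What part other cells or RNA from outside the sorted cells had in the globin values was not tested.

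**Figure D5:**
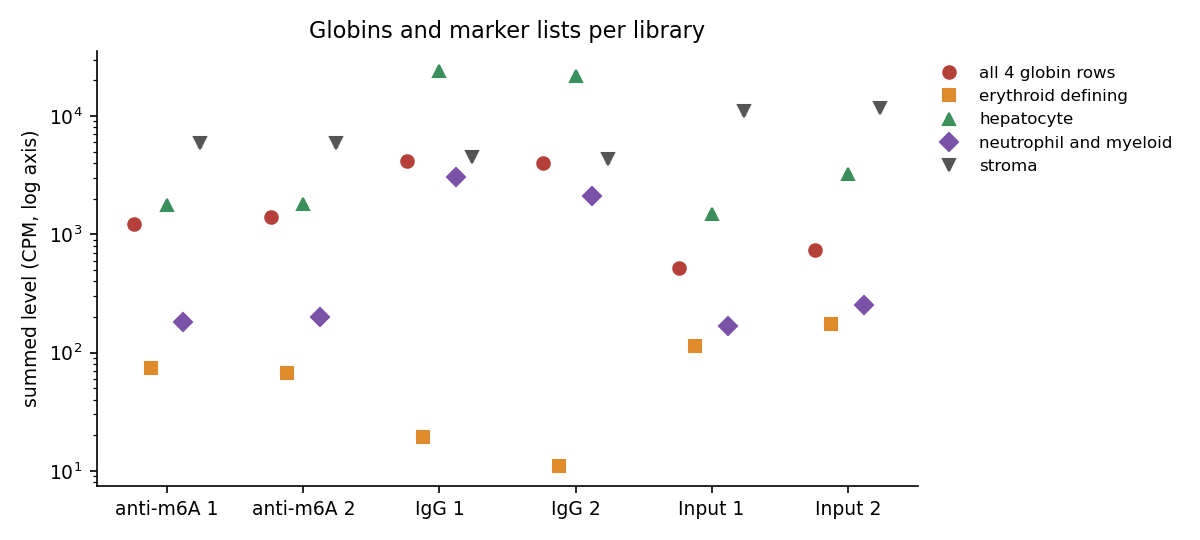
Summed level (CPM, logarithmic axis) of the 4 globin rows and of the stroma, hepatocyte, neutrophil and myeloid, and erythroid defining lists in each library. Globin, hepatocyte and myeloid points are highest in the 2 IgG libraries, and the erythroid points, most of whose counts elsewhere are of Car2, are lowest there.

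The genes whose log2 level was most like that of the summed globins over the 6 libraries, among 2044 genes with a mean of at least 100 CPM, were Tradd, Fam32a, Isg15, Siva1 and Abhd14a, with Pearson r of 0.9995, 0.9991, 0.998, 0.998 and 0.996. Tradd, an adaptor of the tumour necrosis factor receptor, was at 85.9 and 107 CPM in anti-m6A, at 775 and 739 CPM in IgG, and at 16.3 and 37.0 CPM in Input. Isg15, a ubiquitin-like interferon-induced protein, was at 80.9 and 111 CPM in anti-m6A, at 349 and 327 CPM in IgG, and at 28.3 and 44.5 CPM in Input. The 5 were picked for their likeness to the globins, so their shared order IgG, anti-m6A, Input follows from that choice and is no separate result. Tradd and Isg15 reached the mean of 100 CPM through their IgG levels. Each r describes 6 points that fall into 3 groups of libraries.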

How the data were processed

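The deposited file holds raw counts per gene for 6 libraries, with no normalization. The submitters' processing notes name featureCounts, Picard, edgeR 3.38.1 and build mm10 without their roles. The aligner, and what was done with reads that match several copies, is not named in the labels. Per the labels' protocols, poly(A) RNA was pulled down and copied by Smart-seq2, a method that marks neither strand nor molecule. Gene numbers were matched to RefSeq symbols (25275 of 27179; the other 1904 stayed in the fits).

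The counts were fitted by edgeR 4.0.16 (R 4.3.3, limma 3.58.1): filterByExpr with a minimum count of 10 and total of 15 left 11281 genes, libraries were scaled by TMM, and all 6 libraries entered 1 quasi-likelihood fit of 3 group means, leaving 3 residual degrees of freedom. Adjustment was by Benjamini-Hochberg over all genes tested, at a threshold of 0.05. For family sums, the copies were replaced by 1 row holding their sum. The SE is the log2 change divided by the square root of F. Folds against a group at 0 are bounds at 3 counts per library, which cover counting error only and not the spread between libraries. Scripts were tested on simulated data. DESeq2 1.42.0 and other settings were run as alternatives. Intervals are exact (Clopper-Pearson, SciPy 1.17.1), and sequences came from RefSeq and GENCODE tables (aligned with Biopython 1.88).

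Beside the globins, per pathway list and comparison up to 2 called genes a side with the largest log2 change were named, plus every minor globin with a count, Ahsp, Alas2, Slc4a1, Klf1 and Gata1, and the 5 genes most alike (prior count 2). Some genes that this rule takes in are not reported here. Genes named in the marker paragraphs as examples were chosen after their values were seen. Members and lists were chosen with earlier results of these data known.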

Additional observations from a re-analysis of the deposited data

How the results depend on the processing

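In all 14 alternatives both family sums were called lower for anti-m6A against IgG and higher for IgG against Input (in the second comparison the log2 change was 1.68 to 2.61 for alpha and 1.95 to 3.50 for beta). Against Input, the anti-m6A sums stayed higher but the alpha sum was called in 8 of 14 alternatives and the beta sum in 5. The alpha log2 change was 0.44 with DESeq2's size factors, 0.33 with library totals, 0.32 with at least 10 counts in every library and 0.44 with DESeq2, and the beta change 0.85, 0.75, 0.71 and 0.86 under the same settings and 1.32 with only the 4 libraries compared, none of them past the threshold; beyond the shift of the median given above, the cause was not tested. Leaving out 1 library gave 0.71 to 1.01 for alpha and 0.84 to 1.93 for beta. Under a block for the replicate number, the alpha and beta changes were 0.88 and 1.34 and no sum changed its call. With that block, 5 of 17 named pathway genes lost their call in anti-m6A against Input. Same-numbered libraries' deviations correlated at 0.0997, 0.0859 and 0.0415. Noise at low counts lowers such values, so they cannot decide whether same-numbered libraries are paired. Genes called in anti-m6A against Input numbered 5464 as reported, 3364 with the replicate block and 442 to 8691 without 1 library. With at least 10 counts in every library, 1757 genes were tested and 1179 (9187 as reported) were called in anti-m6A against IgG, 928 in anti-m6A against Input and 1051 (8057) in IgG against Input. Of single rows in all comparisons, 148 values stayed on their side of the threshold, 18 lost the call and 2 gained it: Hbb-bs against Input passed without Input library 1 (0.75) or 2 (2.06). Of pathway genes, 661 values stayed likewise, 48 lost the call (39 in anti-m6A against Input), 9 gained it and 7 turned; DESeq2 gave no adjusted p for Flvcr1 and Nfe2. The 7 that turned were of Alas2 and Klf1 against Input with the replicate block (0.23 and 1.89), and without 1 library, where Alas2 ranged from −1.22 to 6.08 and Klf1 from −1.82 to 8.71 in anti-m6A against Input, and Alas2 from −1.97 to 0.044 in anti-m6A against IgG and from −0.30 to 7.50 in IgG against Input. At the depth of these libraries Alas2 and Gata1 had under 100 counts in each.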
